A study of Mus musculus with 6 samples.

Results

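Txnip, the arrestin-domain genes Arrdc1, Arrdc2, Arrdc3 and Arrdc4, and the factors Mlxip, Mlxipl and Mlx were followed on 6 single-colour Agilent arrays of mProx24 cells, a C57B6 mouse cell line of the kidney proximal tubule. The members were the probes, not control spots, whose gene name in the scanner files is one of these 8: 8 of 34797 gene names, 14 of 55681 probes and 23 of 59305 spots. Of the genes, 6 had 2 probes, and Arrdc3 and Mlx had 1. The set was chosen by measured values of these same arrays, the low Txnip level in hypoxia and its high level in triple stimuli, so these contrasts are a description and support nothing by themselves.

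The study asked how components of the diabetic state act on tubule cells, with 1 array per condition. Control cells were kept at 20% oxygen in DMEM with 10% fetal calf serum. Where palmitate, a saturated fatty acid carried on 0.15% albumin, was given, cells had 150 µM for 9 hours, and the labels give PBS for the others. Hypoxic cells spent the preceding 12 hours at 1% oxygen, and triple stimuli joined high glucose, palmitate and hypoxia. For the last condition, cells under triple stimuli also had rapamycin, which inhibits the kinase complex mTORC1, at 0.4 µg/ml over the 12 hours ahead of palmitate. The sources used here give neither the glucose dose nor what carried the rapamycin. The remaining conditions, high glucose alone and free fatty acids alone at 20% oxygen, carry crossed labels. Array A is the scanner file labelled high glucose, which holds the values of the deposited table column labelled high FFAs, and array B is the scanner file labelled high FFAs, which holds those of the column labelled high glucose. Neither was relabelled, and which stimulus each array received is not stated here.

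Thioredoxin-interacting protein, encoded by Txnip, binds reduced thioredoxin and blocks it, and as an alpha-arrestin it promotes removal of glucose transporters from the cell surface. Its transcription is a textbook sensor of cell glucose: glucose 6-phosphate drives MondoA (Mlxip) and its relative ChREBP (Mlxipl), each paired with Mlx, onto carbohydrate response elements, pairs of E-box-like sites 5 bases apart. Arrdc4 is the alpha-arrestin closest to Txnip in sequence and another target of these factors. In the kidney tubule Txnip is known as a gene raised by high glucose.

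Each condition had 1 array, so no value has a replicate error, a test or a p-value, and precision is limited by how few arrays there were. A level is the log2 processed signal of a probe relative to the 75th percentile of its array, and a difference is one level minus another, called when it reached 1 (2-fold). A gene is given by its brightest probe. Where a probe was not well above background on the dimmer array, that array was set to its lowest signal well above background and the difference is a bound. For scale, probes printed several times differed between their own spots with a median SD of 0.06 to 0.08 in the 7 comparisons, and the 2 probes of a gene differed by a median of 0.12 to 0.16, with 95% within 0.51 to 0.76.

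Between 40.3% and 43.8% of the spots were well above background, and 0 were saturated. The arrays shared 1 slide, with the 20% oxygen arrays in row 1 and the 1% oxygen arrays in row 2, so that oxygen and place on the slide cannot be told apart. Calls on the 1% oxygen arrays also varied with place within the array: in hypoxia 9.38% of genes in the first 64 spot rows were higher, against 2.04% in the last 64. Among all genes past 2-fold, the share that was higher depended on scaling and on the floor set for probes near background. In hypoxia it was 90.4%, with 79.1% after scaling to the median and 72.9% after centring in bands of spot rows. The same shares were 74.7%, 61.6% and 55.1% for triple stimuli against control, 71.8%, 51.7% and 41.1% for triple stimuli with rapamycin against control, and 63.2%, 52.2% and 52.7% for array A against control. Without the floor, and with the main scaling kept, the hypoxia share was 69.2% (858 higher, 382 lower). Triple stimuli then gave 57.0%, or 59.3% once rapamycin was added, and array A 53.6%, each against control. On array B the share went from 52.4% to 28.2% without the floor. Scaling to the median moved the median difference of all genes to -0.16 in hypoxia, -0.12 in triple stimuli and -0.20 with rapamycin. Of 17 proximal tubule markers, 7 were well above background on all 6 arrays, among them the endocytic receptors Lrp2 and Cubn, and 8 were on none, among them the transporters Slc34a1, Slc5a2 and Slc22a6 and the factor Hnf4a. Epithelial markers were present on all 6 arrays for 5 of 6 genes, and the fibroblast markers for 0 of 4. Kdr of 4 endothelial markers, Aqp2 of 6 markers of other nephron cells, and Cd68 and Cd3e of 4 leukocyte markers were also above background on all 6.

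Txnip was low in hypoxia and high in triple stimuli. Against control it was 3.13-fold lower in hypoxia, 5.87-fold higher in triple stimuli and 7.49-fold higher in triple stimuli with rapamycin, and it was 18.4-fold higher in triple stimuli than in hypoxia alone. It was also 2.97-fold higher on array B, and close to control on array A. Arrdc4 was 2.09-fold higher in triple stimuli than in control and 2.37-fold higher than in hypoxia. The other 6 genes stayed within 2-fold in all 7 comparisons.

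All 8 genes were well above background on all 6 arrays by their brightest probe, and 11 of the 14 probes were. None of the 14 carried an outlier mark. In hypoxia 1 of 8 was at least 2-fold lower (Txnip) and 0 higher, where 0.469% of all genes tested were lower and 4.42% higher. The floor lowers that 0.469%, since 382 of 17708 genes were lower in hypoxia without it, against 83 with it. In triple stimuli against control 2 of 8 were higher (Txnip and Arrdc4) and 0 lower, beside 5.08% and 1.72% of all genes. In triple stimuli against hypoxia Txnip and Arrdc4 were higher and 0 of 8 lower, beside 3.50% and 3.03% of all genes. On array B 1 of 8 was higher (Txnip) and 0 lower, beside 0.310% and 0.281%, and on array A 0 of 8 were higher or lower, beside 1.56% and 0.908%. With rapamycin against triple stimuli 0 of 8 were higher or lower, beside 1.95% and 2.15%, and against control 1 of 8 was higher (Txnip) and 0 lower, beside 4.54% and 1.78%. Since Txnip was chosen for these contrasts, nothing is read from the counts. The median of the 8 genes stayed near that of all genes, at -0.10 against -0.01 in hypoxia and 0.24 against -0.01 in triple stimuli.

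**Figure D1:**
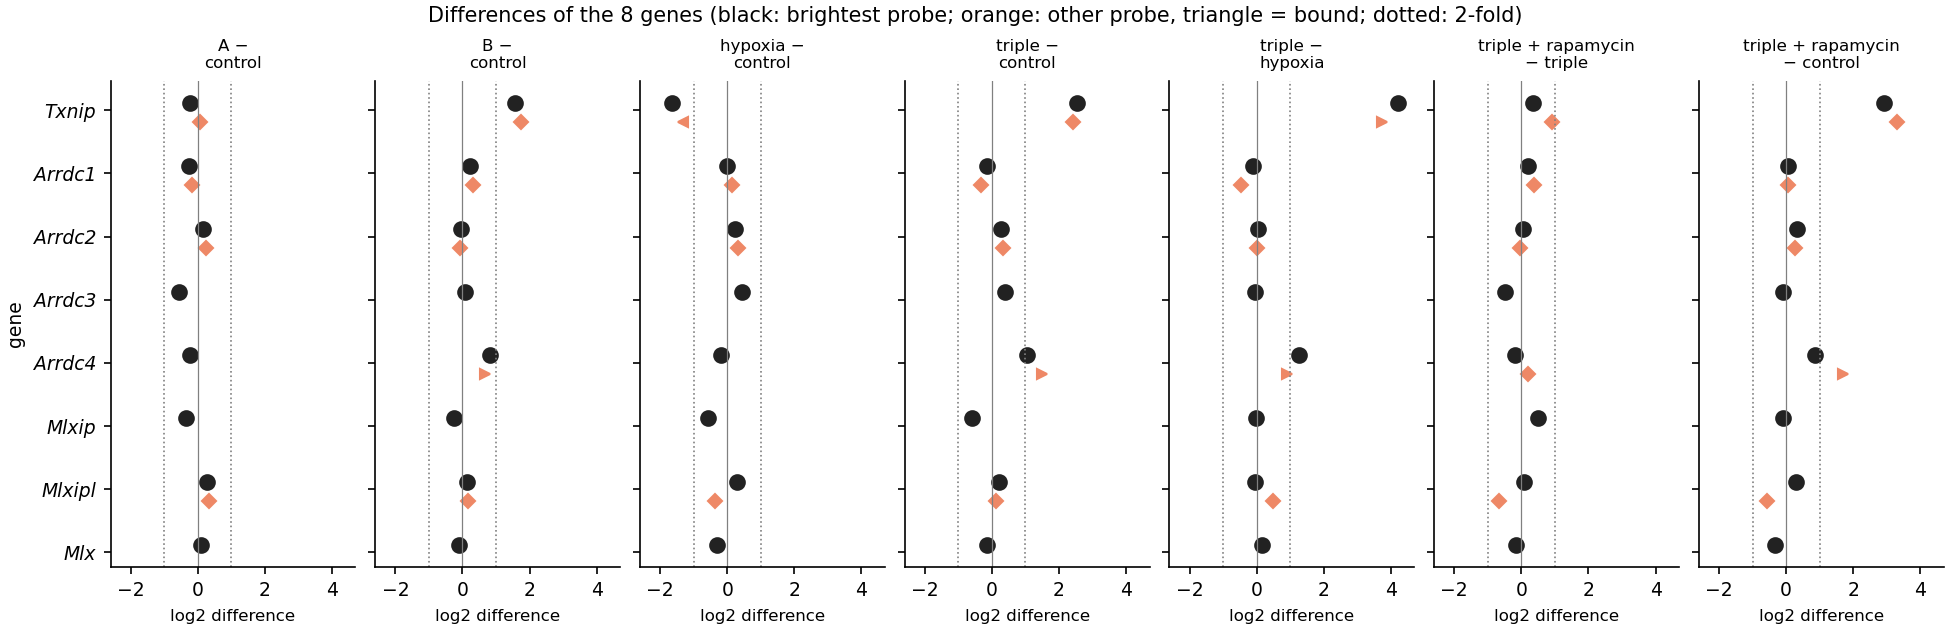
Log2 difference (x axis) of each of the 8 genes (y axis) in the 7 comparisons, 1 panel each. Black points are the brightest probe, orange marks the other probe and triangles are bounds. Txnip lies past the dotted 2-fold lines in 5 panels and Arrdc4 in 2 by its brightest probe, while the other 6 genes lie between the lines.

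The brighter Txnip probe, A_51_P438805, lies on mm9 chromosome 3, 96365147 to 96365206, plus strand. At 20% oxygen its level was 0.77 in control, 0.55 on array A and 2.34 on array B. At 1% oxygen it was -0.87 in hypoxia, 3.33 with triple stimuli and 3.68 once rapamycin was added. Hypoxia was lowest by a wide step, control and array A lay next to each other, and array B, triple stimuli and triple stimuli with rapamycin followed in that order. The scanner software's own error of a difference, which covers the spot and not the spread between cultures, was 0.20 to 0.21 for this probe. Against it the step from array A to control (-0.22 for array A minus control) was about the size of the error. The step from triple stimuli to triple stimuli with rapamycin (0.35) was larger than the error but under 2-fold.

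The second Txnip probe, A_55_P2006255, lies at 96364206 to 96364265 on the same strand. It is printed because its sequence shows which part of the gene the array reads a second time, away from the brighter probe, and it has 2 reading frames with no stop codon.
A_55_P2006255: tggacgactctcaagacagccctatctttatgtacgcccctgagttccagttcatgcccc
Its level was -1.76 in control, -1.71 on array A and -0.03 on array B, then -3.15 in hypoxia, 0.66 with triple stimuli and 1.56 with rapamycin added. In hypoxia it was not well above background, so its difference from control there was -1.32 or lower, and triple stimuli was at least 3.74 above hypoxia, a 13.3-fold difference or more. Array B was 1.73 above control and triple stimuli 2.42 above control. The arrays thus took nearly the order they took by the brighter probe, with array A at 0.06 from control in place of -0.22.

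The probes gave different sizes for rapamycin. Triple stimuli with rapamycin was 0.35 above triple stimuli by the brighter probe and 0.91 by the second, which lies in row 2 of the spots. In that comparison 7.28% of genes in the first 64 rows were at least 2-fold higher and 7.19% lower, with a median of -0.03. In the last 64 rows 0.153% were higher and 0.498% lower. Centred within bands of spot rows the second probe gave 0.81 and the brighter probe 0.26. Both values lay under 2-fold, and the part of spot position in the gap between them was not tested beyond that.

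**Figure D2:**
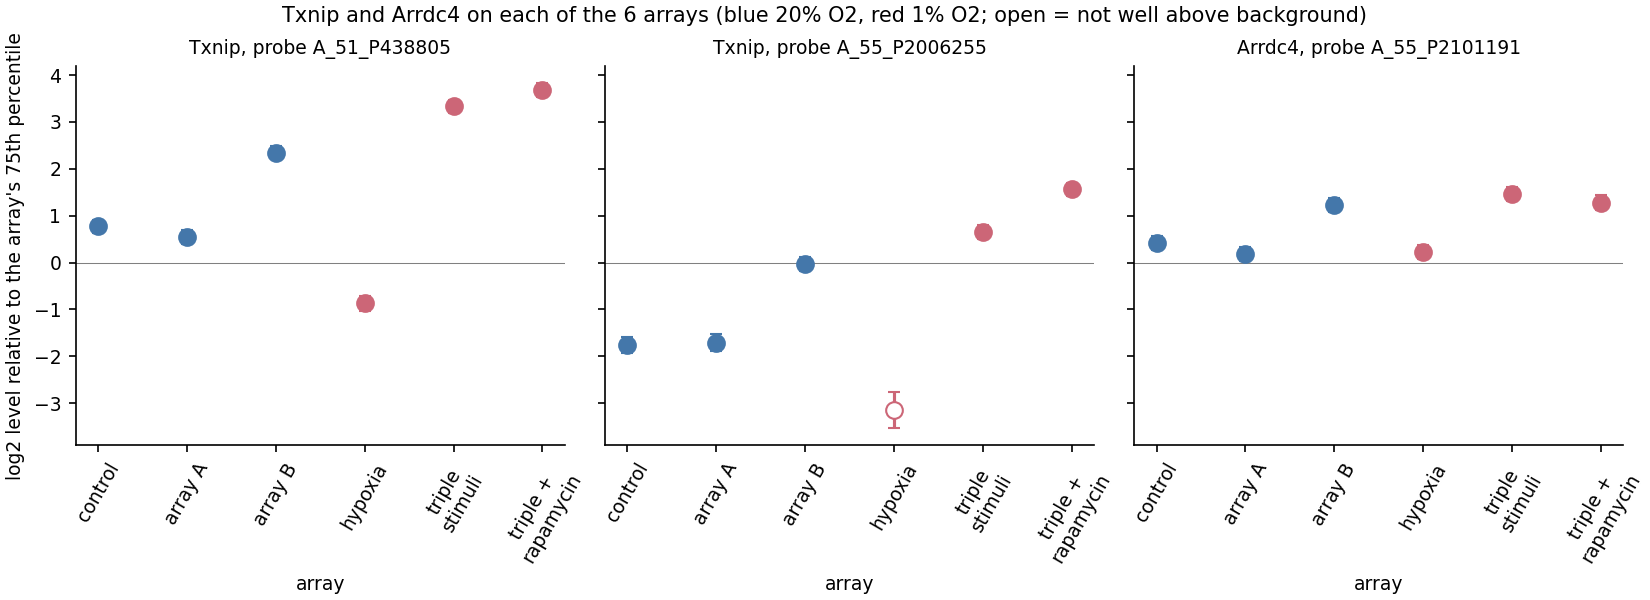
Log2 level relative to the array's 75th percentile (y axis) on each array (x axis) for both Txnip probes and the brighter Arrdc4 probe. Points are single arrays, bars are the scanner's error of the spot, blue is 20% oxygen, red 1% oxygen, and the open point is not well above background. Txnip runs from -0.87 in hypoxia to 3.68 in triple stimuli with rapamycin by its brighter probe, and Arrdc4 from 0.19 on array A to 1.47 in triple stimuli.

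The Txnip difference between triple stimuli and hypoxia was the second highest of 16979 genes tested. In hypoxia against control it was the 13th lowest of 17708, on array B the 13th highest of 17413, in triple stimuli the 158th highest of 17704, and with rapamycin against control the 106th highest of 17880. Genes with a bound were ranked by the bound, which shrinks falls into background. These ranks were not recomputed without the floor. In all, 5 of 17272 genes tested in both comparisons were at least 2-fold lower in hypoxia and at least 2-fold higher in triple stimuli than control, and both comparisons share the control array. They were Txnip, Egr1 (an immediate early transcription factor; -1.96 and 1.35), Plk3 (a stress-responsive kinase; -1.01 and 1.54), Cxcl2 (a neutrophil chemokine; at -1.07 or lower in hypoxia, and 2.48) and Galt (an enzyme of galactose metabolism; -1.04 or lower, and 1.07). Of these only Txnip was also at least 2-fold higher on array B, where Egr1 was at -0.04, Plk3 at -0.14, Galt at -0.01 and Cxcl2 at -0.76. Arrdc4 was not among them: it was past 2-fold in triple stimuli (1.06) but near control in hypoxia (-0.18). Over the processing settings tried, its hypoxia difference ran from -0.57 to -0.16.

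**Figure D3:**
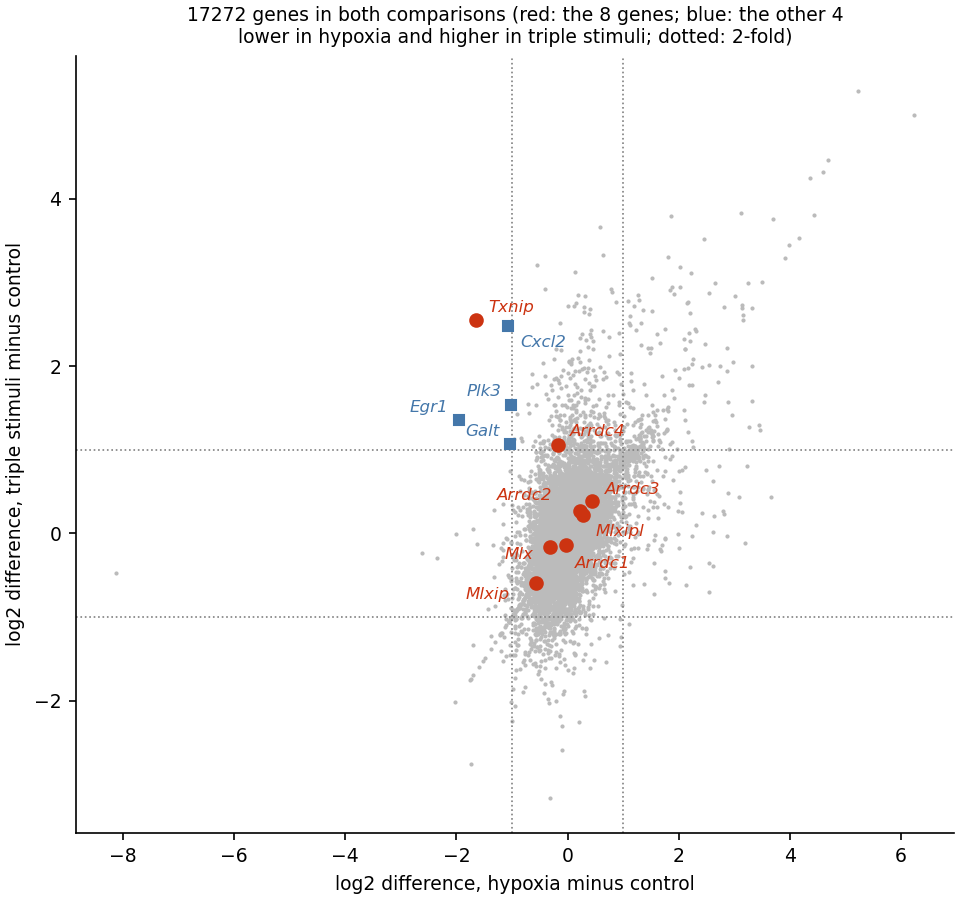
Log2 difference from control in hypoxia (x axis) and in triple stimuli (y axis) for 17272 genes (grey), with the 8 genes in red and the other 4 genes lower in hypoxia and higher in triple stimuli in blue. Dotted lines mark 2-fold, and both axes share the control array. Txnip stands at -1.65 and 2.55, and the 6 genes other than Txnip and Arrdc4 lie inside the central square.

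The promoter of Txnip was searched for the carbohydrate response element, since the factors on the list bind it. In RefSeq promoters of build GRCm38.p6, 250 bases before to 50 after each start, all 8 genes were matched. The pair CACGNG and CNCGNG, with 5 bases between them and on either strand, was found in Txnip alone of the 8, and in 0.365% of 32851 promoters. Txnip also met the stricter pair of CACGNG and CACGNG at the same spacing, a subset of the first found in 0.0487% (16 promoters). The E-box CACGTG was in 7.15% of promoters and in those of Arrdc4, Mlx and Mlxipl (1 of its 2 starts). The windows around these matches are shown to set the paired sites of Txnip beside the single E-boxes, with the match in capitals.
Txnip: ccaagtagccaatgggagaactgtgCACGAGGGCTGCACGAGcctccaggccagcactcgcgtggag
Arrdc4: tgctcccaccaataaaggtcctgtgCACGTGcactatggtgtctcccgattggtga
Mlx: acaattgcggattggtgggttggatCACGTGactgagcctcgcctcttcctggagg
Mlxipl: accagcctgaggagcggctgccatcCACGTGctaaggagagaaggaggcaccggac
The Txnip window is chr3:96557847-96557913 on the plus strand, with the match 85 to 69 bases before the start. The Arrdc4 window is chr7:68749401-68749456 on the minus strand, with its E-box 193 to 188 bases before the start. The Mlx window is chr11:101087225-101087280 (plus strand, 40 to 35 bases before) and the Mlxipl window chr5:135089767-135089822 (plus strand, 98 to 93 bases before). A match is a description of the letters and no sign that a factor was bound in these cells.

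Arrdc4 encodes an alpha-arrestin that, like Txnip, acts on glucose transporters and recruits ubiquitin ligases. Its brighter probe, A_55_P2101191, lies on mm9 chromosome 7, 75886496 to 75886555, minus strand, and is assigned by the array design to transcript variant 2. Control read 0.41, array A 0.19 and array B 1.23, and the 1% oxygen arrays read 0.23 (hypoxia), 1.47 (triple stimuli) and 1.28 (with rapamycin). Array B, triple stimuli and triple stimuli with rapamycin were high, and control, array A and hypoxia were low and within 0.22 of control, near the scanner error of 0.21. Against control, array B differed by 0.82, hypoxia by -0.18, triple stimuli by 1.06 and rapamycin with triple stimuli by 0.87. The value just past 2-fold was thus triple stimuli against control, and the one just short of it rapamycin against control. The first fell under 2-fold with scaling to the median (0.95), normexp background correction (0.85) and centring in bands of spot rows (0.81).

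The other Arrdc4 probe, A_51_P111612, assigned to variant 1 at 75881905 to 75881964, was printed 10 times on each array. Its mean level over spots was -4.37 in control, -4.55 on array A and -3.0 on array B. It was -5.18 in hypoxia, -2.16 with triple stimuli and -1.96 with rapamycin added. Of its 10 spots, control had 1 well above background, array B 6, array A and hypoxia 0, and both remaining arrays all 10. The transcript read by this probe was therefore measured with triple stimuli, with and without rapamycin, and on array B, and only a bound was had elsewhere. Triple stimuli was at least 1.5 above control (2.82-fold) and triple stimuli with rapamycin at least 1.69 (3.23-fold). Against hypoxia the bound was 0.92, and array B was at least 0.66 above control. In triple stimuli all 10 spots lay above their partners in control and all 10 above those in hypoxia. Rapamycin minus triple stimuli was 0.20 with an SD of 0.30 over the 10 spots, against -0.19 by the brighter probe, so the probes gave no common direction for rapamycin.

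**Figure D4:**
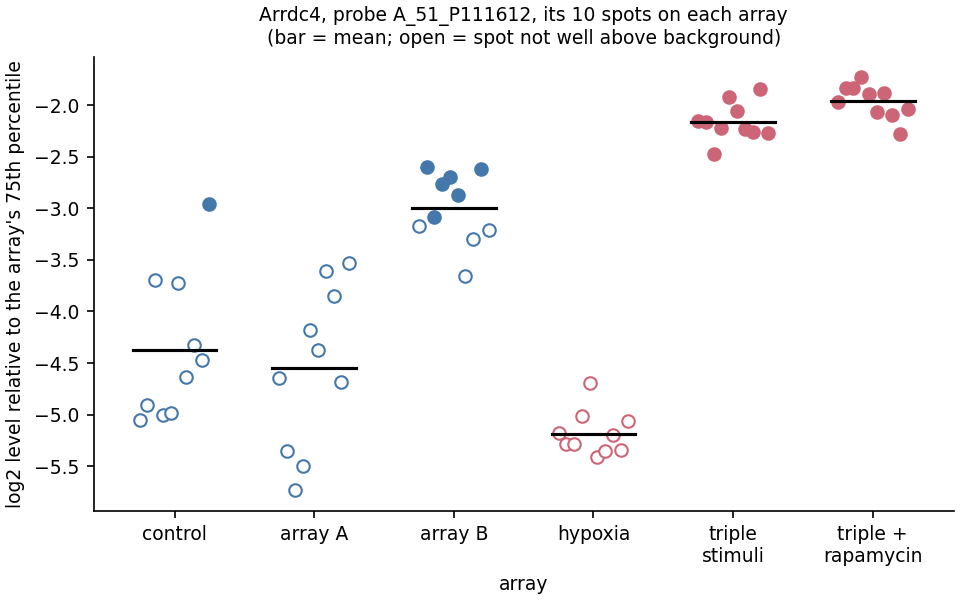
Log2 level relative to the array's 75th percentile (y axis) of the 10 spots of Arrdc4 probe A_51_P111612 on each array (x axis). Filled points are well above background, open points are not, and bars are means of spots of 1 array. All 10 spots of triple stimuli, at -2.48 to -1.84, lie above all 10 of hypoxia, at -5.41 to -4.69.

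By root mean square difference of centred levels over the 6 arrays, Arrdc4 was the 18th nearest of 14990 genes to Txnip, at 1.14 with Pearson's r 0.93. Ranked from Arrdc4 the same distance of 1.14 put Txnip 14936th of 14990, so the measure does not make them mutual neighbours. That distance counts the size of changes, and Txnip ranged over 4.55 and Arrdc4 over 1.29. Ranked by r, which leaves size out, Txnip was 20th of 14990 from Arrdc4 and Arrdc4 64th from Txnip. The 5 nearest to Txnip by distance were Egr1 (0.65, r 0.94), Dusp2 (1.01, r 0.84), Sgk1 (1.02, r 0.96), Btg2 (1.03, r 0.90) and Etv5 (1.08, r 0.79). The nearest to Arrdc4 were Zswim4 (0.19; r 0.96), Filip1l (0.24; r 0.91), Dub1 (0.25; r 0.95), Cdkn2aip (0.26; r 0.89) and Sema7a (0.29; r 0.86). These correlations run over 6 arrays of 1 slide, at different treatments, and are a description. Egr1 shared with Txnip the order hypoxia, control, triple stimuli, triple stimuli with rapamycin, but differed by -0.04 between array B and control.

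The other arrestin-domain genes stayed within 2-fold in all 7 comparisons. Arrdc1, whose protein drives budding of vesicles at the plasma membrane, had levels by probe A_55_P1958280 (mm9 chromosome 2, 24780875 to 24780934) of 3.0 in control, 2.74 on array A and 3.21 on array B, and of 2.98 in hypoxia, 2.86 with triple stimuli and 3.07 with rapamycin. The range was 0.47, and its second probe (24782434 to 24782493) ranged over 0.63, with its lowest level in triple stimuli (-1.05) and its highest on array B (-0.42). Triple stimuli minus hypoxia was -0.47 by the second probe and -0.11 by the brighter.

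Arrdc2 was read by 2 probes that overlap in sequence on mm9 chromosome 8, at 73359065 to 73359124 and 73359054 to 73359113, so they are not independent readings. The first gave 1.62 in control, 1.78 on array A and 1.58 on array B, against 1.84 in hypoxia, 1.89 with triple stimuli and 1.94 with rapamycin. Its range of 0.36 and the 0.39 of the overlapping probe were among the smallest of the members. The arrays at 1% oxygen were the highest of the 6, by 0.22 to 0.32 over control, which is little more than the scanner error of 0.20.

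Arrdc3, an alpha-arrestin that carries activated beta-adrenergic receptors to ubiquitin ligases, had 1 probe (mm9 chromosome 13, 81034981 to 81035040), well above background on all 6 arrays. Its level was -2.15 in control, -2.70 on array A and -2.07 on array B, and -1.71 in hypoxia, -1.76 with triple stimuli and -2.24 with rapamycin. It did not follow Txnip: hypoxia was its highest array, 0.44 above control, where Txnip was lowest. Its range over the 6 arrays, 0.99 from array A to hypoxia, was the widest by brightest probe after Txnip and Arrdc4. Array A was -0.55 from control and rapamycin minus triple stimuli was -0.49, beside a scanner error of 0.28 for each and under 2-fold.

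Of the factors, Mlxip, which encodes MondoA, had levels by probe A_51_P246727 (mm9 chromosome 5, 123907398 to 123907457) of -1.12 in control, -1.46 on array A and -1.38 on array B, and of -1.70 in hypoxia, -1.72 with triple stimuli and -1.21 with rapamycin. Control and rapamycin were high, and hypoxia and triple stimuli low by -0.57 and -0.59, or 1.49-fold and 1.51-fold lower than control. Triple stimuli and hypoxia differed by -0.02, and rapamycin minus triple stimuli was 0.51. Txnip was 18.4-fold apart between triple stimuli and hypoxia, and a link to the Mlxip level was not tested. The second Mlxip probe (123896216 to 123896275) was not well above background on any of the 6 arrays.

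Mlxipl, which encodes ChREBP, had probes that went apart in hypoxia and with rapamycin against triple stimuli. The brighter, A_55_P2045158 (mm9 chromosome 5, 135614195 to 135614252), read 1.38 in control, 1.66 on array A and 1.5 on array B, and 1.66 in hypoxia, 1.60 with triple stimuli and 1.67 with rapamycin, a range of 0.29. The dimmer, A_55_P2119957 (135613705 to 135613764), read -2.33, -2.0, -2.17, -2.69, -2.22 and -2.90 on the arrays in that order, a range of 0.90. In hypoxia the brighter was 0.28 above control and the dimmer at -0.36, and with rapamycin against triple stimuli they stood at 0.07 and -0.68. The brighter probe holds a run that 15 of the 55679 probes of other gene names also carry on either strand, in capitals in the stretch below, which is typical of the rodent B1 repeat. No 13-base word of the Txnip probes was in more than 1 probe of another gene.
A_55_P2045158, bases 30 to 58: gatgcacaCCTTTAATCCCAGtacttggg
How much of the brighter signal comes from other transcripts with this run was not tested, and no direction is given for Mlxipl.

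Mlx, the obligate partner of both factors, was read by 1 probe on mm9 chromosome 11, 100952426 to 100952485. Control was at 1.81, array A at 1.90 and array B at 1.72, with hypoxia at 1.5, triple stimuli at 1.64 and rapamycin at 1.49. The arrays at 1% oxygen were lowest, with differences from control of -0.31, -0.16 and -0.32 beside a scanner error of 0.20. None of the 3 factors stood 2-fold apart in any comparison by its brightest probe, which for Mlxipl holds the shared run. These are transcript levels, and the activity of the factors was not measured.

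Glucose 6-phosphate, the signal to MondoA and ChREBP, was not measured on these arrays, and a link of the transcripts below to Txnip was not tested. Of 8 measured genes of glucose entry and glucose 6-phosphate, 5 were at least 2-fold higher in hypoxia and 0 lower. The median of the 8 was 1.22, beside -0.01 for all genes and 4.42% of all genes higher. The 5 were Slc2a1 (the glucose transporter GLUT1; 1.73), Slc37a4 (the glucose 6-phosphate transporter of the endoplasmic reticulum; 1.42), Hk2 (hexokinase 2; 1.38), Hkdc1 (1.27) and Gpi1 (1.18). In triple stimuli 2 of 8 were higher than control, Hk2 (1.79) and Slc2a1 (1.66), beside 5.08% of all genes, with a median of 0.75. Between triple stimuli and hypoxia 0 of 8 were higher or lower, beside 3.50% and 3.03% of all genes. On array A 2 of 8 were higher, Hkdc1 (1.40) and Hk2 (1.03), beside 1.56% of all genes. On array B 0 of 8 were higher or lower, beside 0.310% and 0.281%. With rapamycin against triple stimuli Slc2a1 was at -0.66 and 1 of 8 was lower, Hkdc1, as a bound of -1.15, beside 2.15% of all genes.

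Of 14 other glucose-responsive targets listed, 10 were measured. In hypoxia 1 of 10 was at least 2-fold higher and 0 lower, beside 4.42% and 0.469% of all genes, with a median of -0.32. In triple stimuli 1 was higher and 2 lower, beside 5.08% and 1.72%, with a median of -0.55. With rapamycin against control 2 were higher (Klf10 and Acacb) and 4 lower (Gpd1, Acaca, Fasn and Elovl6), beside 4.54% and 1.78%, with a median of -0.68. Klf10, a transcription factor gene, stood 0.40 above control in hypoxia and 1.42 above it in triple stimuli, and Acacb, an acetyl-CoA carboxylase, at 1.43 and 0.47. Gpd1, glycerol 3-phosphate dehydrogenase, was at -1.11 or lower and Elovl6, a fatty acid elongase, at -1.01 in triple stimuli. Pklr, G6pc, Fgf21 and Thrsp, classical targets of ChREBP in liver, were not well above background on any array.

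In the network of Max and Mlx partners, 7 of 10 genes were measured, 0 of them 2-fold apart in hypoxia, beside 4.42% of all genes higher and 0.469% lower. In triple stimuli 2 were higher and 1 lower, beside 5.08% and 1.72%: Myc was at 2.05 and Mnt, a repressor that can pair with Mlx, at 1.18, while Mxd3 was at -1.18. Short of 2-fold, Mnt was at 0.95 in hypoxia and 0.67 on array A, and Mxd3 at -0.41 and -0.98. Myc, which competes in this network for E-boxes, was at 0.06 in hypoxia, at 1.45 on array A and at -0.15 on array B. A link between the levels of Myc and Txnip was not tested.

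Of 9 measured genes of the thioredoxin system and Txnip partners, 1 was called in hypoxia and in triple stimuli, Ddit4 (an mTORC1 inhibitor also known as Redd1), at 2.29 and 2.44, beside 4.42% and 5.08% of all genes higher. The thioredoxins moved less than 2-fold, with Txn1 at -0.15 and -0.30 and Txn2 at -0.34 and 0.03, and the reductase Txnrd1 gave -0.67 in hypoxia against 0.23 in triple stimuli. Of 12 measured arrestins, ligases and cargo genes, 1 was called in hypoxia, Arrb1 (beta-arrestin 1), at 1.75, beside 4.42% of all genes higher, with 0.91 in triple stimuli. The ligases Itch, Nedd4 and Nedd4l, which bind alpha-arrestins, stayed between -0.35 and 0.19 in all 7 comparisons, and the closest relative by name, Arrdc5, was not well above background on any array.

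**Figure D5:**
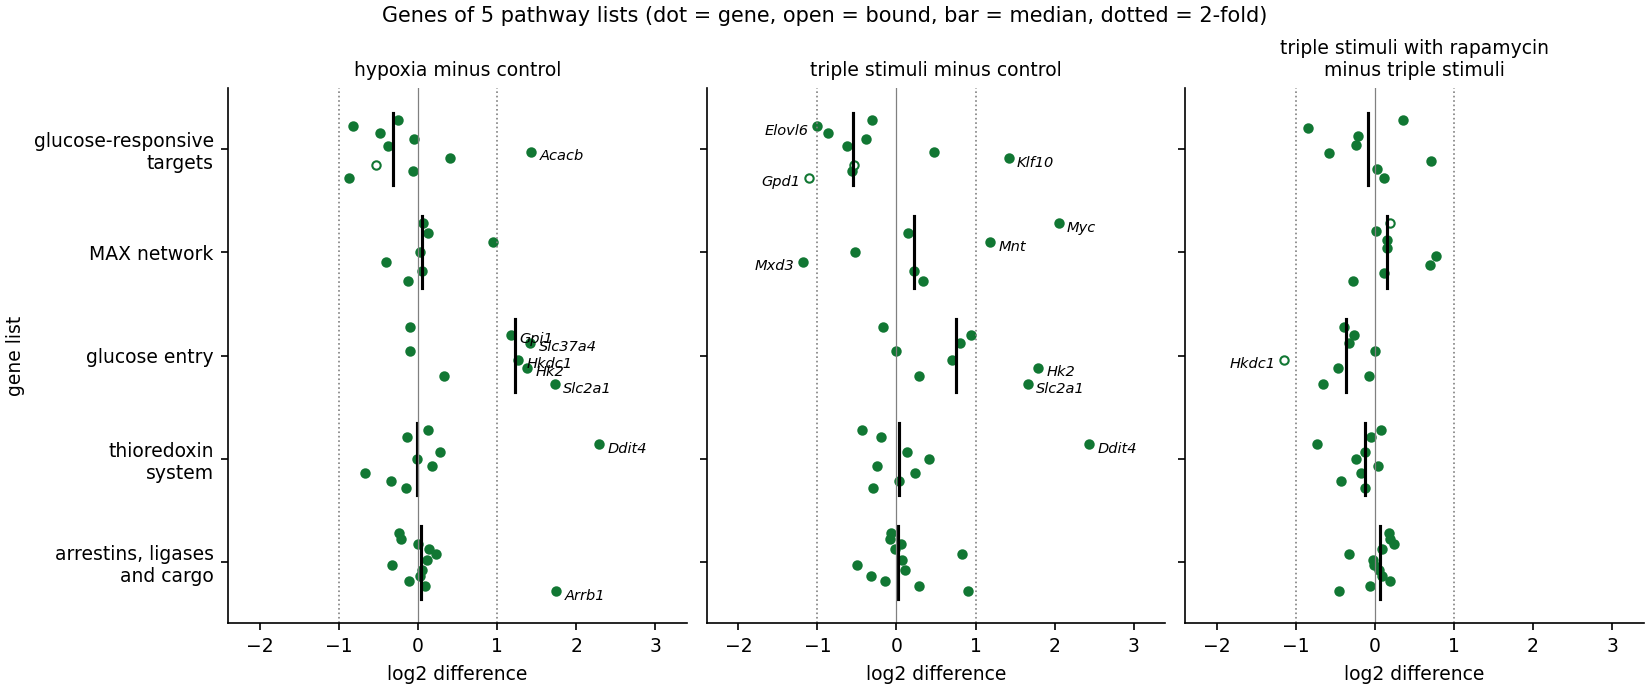
Log2 difference (x axis) of the measured genes of 5 lists (y axis) in hypoxia against control, triple stimuli against control, and rapamycin against triple stimuli. Each dot is a gene, open dots are bounds, bars are medians and dotted lines 2-fold. Of the 8 genes of glucose entry and glucose 6-phosphate, 5 lie past 2-fold to the right in hypoxia, beside 4.42% of all genes. The median of the 8 is 1.22.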

How the data were processed

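The authors' software was Agilent Feature Extraction 10.7.3.1, per the submitters' processing notes. Per the file headers the array design is on mm9 in 1 colour, and each deposited spot has an intensity after background subtraction and detrending within the array, left unscaled between arrays. In the deposited value table each probe has a ratio, its intensity over the 75th percentile of its array, as read from the values, with no centring; its column medians were 0.0505 (control), 0.0516 (labelled high glucose), 0.0535 (high FFAs), 0.0562, 0.0544 and 0.0561 (hypoxia, triple stimuli, with rapamycin). Its columns matched the scanner files with an SD of at most 2.89e-07 on the log2 scale, with the high glucose and high FFAs labels crossed. Log2 intensity was scaled to the 75th percentile of non-control spots, spots of a probe were averaged, 323 probes with outlier marks left out, and each gene given by its brightest probe; a probe counts as well above background where at least 50% of its spots do. A gene was tested where at least 1 of the 2 arrays was above background. Named were each member and probe, up to 4 list genes at least 2-fold apart in hypoxia, triple stimuli minus hypoxia or rapamycin minus triple stimuli, and the 5 genes nearest to Txnip and Arrdc4; other named list genes and the 4 genes sharing the Txnip pattern were chosen after their values were seen. Members, lists and alternatives were chosen with earlier results of these data known. R 4.3.3, limma 3.58.1 (normexp) and Python 3.11.15 were used. Calls were also run on simulated data as a check of the code, with set changes larger than 2-fold and the noise of repeat spots. That simulation had no probes near background, no effect of spot rows and no spread between cultures. Some genes of the lists are not reported here and were left out of their counts and medians. No annotation of mm9 was used, so exons and untranslated regions are not given.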

Additional observations from a re-analysis of the deposited data

How the results depend on the processing

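The counts of members called were recomputed under 10 alternatives in 7 comparisons, and under 1 chosen after seeing the data, the other probe of each member with 2. The differences of the members were recomputed under the same settings except the 1.5-fold call, which changes counts alone. The gene lists, likeness ranks and pattern counts were not recomputed. Txnip kept its side of 2-fold wherever its difference was recomputed: -2.03 to -1.35 in hypoxia, 1.5 to 1.65 on array B, 2.30 to 2.55 in triple stimuli, 3.80 to 4.33 in triple stimuli minus hypoxia, and 0.26 to 0.63 for rapamycin minus triple stimuli, with -1.32, 1.73, 2.42, 3.74 and 0.91 by its other probe. Changes in the count of members came through Arrdc4, except that Mlxip was added in triple stimuli by a 1.5-fold call (3, not 2). That call took in 18.7% of all genes in triple stimuli, against 6.80% at 2-fold. In triple stimuli the count was 1, not 2, with scaling to the median, normexp and centring in bands of spot rows. These settings called 6.77%, 3.51% and 8.21% of all genes. On array B and in triple stimuli with rapamycin against control the count was 2, not 1, with the mean of all probes and with a 1.5-fold call. For array B these settings called 0.910% and 3.24% of all genes, against 0.592% in the main setting. For rapamycin against control they called 7.03% and 19.3%, against 6.33%. By the other probes the count was 1, not 2, in triple stimuli minus hypoxia and 2, not 1, with rapamycin against control. Of all genes 6.53% and 6.33% were called there. Of all genes 899 were higher and 305 lower in triple stimuli, against 507 and 114 with normexp. No paired analysis was possible because each condition has 1 array. Probes near background give bounds only, and 1 array per condition gives no spread between cultures.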

Other observations

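Among all RefSeq promoters, 15 gene symbols had the strict pair found in Txnip, CACGNG and CACGNG with 5 bases between them, and 13 were on the arrays. This list was drawn after the values were seen and carries no test. Beside Txnip 9 genes were measured, and 0 of the 9 were 2-fold apart in any of the 7 comparisons. Of all genes 0.592% to 6.80% were called per comparison, so nothing is read from this count. The medians of the 9 were 0.05 in hypoxia and 0.00 in triple stimuli, beside -0.01 for all genes in both. The differences included Fnip1, which encodes a partner of folliculin (0.71 in hypoxia and 0.39 in triple stimuli), Nfkb2, a subunit of NF-kappa B (0.20 and 0.57), and Rbmxl1 (-0.37 and 0.00). With the wider pair, CACGNG and CNCGNG, 97 of 115 symbols were on the arrays, and 3 of 72 measured genes other than Txnip were at least 2-fold higher in triple stimuli (Pim3, Slc25a33 and Sox12) with 0 lower, beside 5.08% and 1.72% of all genes. In triple stimuli minus hypoxia 1 of 72 was higher, Slc25a33, beside 3.50%.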
